A study of Mus musculus with 6 samples.

Results

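The genes described here are 40 cell cycle genes of the mouse, taken by symbol from a table of 23404 genes: cyclins and their kinases, the machinery of DNA replication, and the machinery of mitosis. All 40 were in the table. The mRNA libraries came from cells of strain C57BL/6J, sorted by green autofluorescence (the FITC channel) and forward scatter (FSC), a signal that grows with particle size. The FITChigh gate took bright cells with dim FSC (FITChigh/FSCdim) and the FITCdim gate the opposite (FITCdim/FSChigh), and each had 3 libraries that the series text calls biological replicates. Both carry the label cardiomyocyte and no treatment or allele is given. The sources used here give neither age nor the number of mice behind a library.

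A cell enters the cycle when D-type cyclins activate Cdk4 and Cdk6, which relieves the repression of E2F target genes by the retinoblastoma family. Cyclin E and cyclin A with Cdk2 then drive DNA replication, and cyclin A and cyclin B with Cdk1 drive mitosis. Most ventricular cardiomyocytes of the adult mouse no longer divide, whereas endothelial cells, fibroblasts and macrophages of the heart can. RNA of the mitotic genes is made only for part of the cycle and is nearly absent from resting cells, while D-type cyclins, Cdk4, the Mcm helicase subunits and Pcna can also be found in cells that do not divide. On this textbook basis 24 of the genes were taken as proliferation-specific (cyclins A, B and E, Cdk1, Rrm2 and all mitotic genes but Cdc25b), and the other 16 served as comparison genes.

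Repression of mitotic genes in resting cells is known to act through a short promoter element, the cell cycle genes homology region (CHR, TTTGAA), usually close to CCAAT boxes, which bind NF-Y. Replication genes often carry E2F sites instead. RefSeq promoter windows (GRCm38.p6, the build of mm10) from 250 bases before the transcript start were matched for 32 of the 40 genes. The stretches below are those of 4 mitotic genes that were lower in FITChigh (Top2a, Mki67, Ccnb2 and Kif23), of Prc1, also lower, and, as a contrast, of the mitotic gene Cenpf and the replication gene Pcna, neither of which passed the test. They are written 5′ to 3′ on the strand of the gene, and capitals mark CCAAT or TTTGAA on either strand (ATTGG and TTCAAA are their reverse complements).
Top2a, chr11:99024180-99024339, minus strand: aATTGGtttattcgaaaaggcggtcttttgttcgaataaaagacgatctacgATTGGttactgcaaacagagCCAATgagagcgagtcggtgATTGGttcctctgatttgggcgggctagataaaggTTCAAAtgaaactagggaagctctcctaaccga
Mki67, chr7:135716469-135716579, minus strand: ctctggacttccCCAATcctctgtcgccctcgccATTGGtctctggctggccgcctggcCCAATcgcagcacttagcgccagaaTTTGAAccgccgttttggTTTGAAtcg
Ccnb2, chr9:70421540-70421654, minus strand: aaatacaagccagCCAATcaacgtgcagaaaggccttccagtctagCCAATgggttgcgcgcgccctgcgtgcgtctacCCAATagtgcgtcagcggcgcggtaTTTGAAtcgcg
Kif23, chr9:61946785-61946899, minus strand: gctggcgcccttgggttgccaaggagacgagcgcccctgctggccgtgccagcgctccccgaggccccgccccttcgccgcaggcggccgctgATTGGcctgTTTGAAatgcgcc
Prc1, chr7:80294371-80294465, plus strand: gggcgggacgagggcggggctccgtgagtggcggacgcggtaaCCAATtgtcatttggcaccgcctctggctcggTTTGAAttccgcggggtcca
Cenpf, chr1:189688072-189688231, minus strand: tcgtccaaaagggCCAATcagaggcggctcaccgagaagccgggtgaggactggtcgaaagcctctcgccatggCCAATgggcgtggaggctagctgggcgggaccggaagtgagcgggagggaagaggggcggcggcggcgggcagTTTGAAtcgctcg
Pcna, chr2:132253171-132253290, minus strand: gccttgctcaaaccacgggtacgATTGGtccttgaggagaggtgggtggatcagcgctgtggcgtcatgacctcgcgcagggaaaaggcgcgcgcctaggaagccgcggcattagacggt

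Across the windows, which run to 50 bases from the start, TTTGAA stood in 13 of 18 mitotic genes with a window and in 1 of 14 G1 and replication genes, the helicase subunit Mcm2. It was present in 17.9% of all 32851 windows of this length. CCAAT stood in 16 of the 18 mitotic genes and in 8 of 9 replication genes, against 37.4% of all windows. The E2F-like letters TTTNNCGC were in 5 of the 9 replication genes, namely Mcm3, Mcm5, Mcm6, Mcm7 and Tyms, and among mitotic genes only in Cdk1, against 5.17% of all windows. Motifs were sought on both strands, and 1 pair of matches of different motifs shared bases. CCAAT and TTTGAA together stood in 12 of the 18 mitotic genes, against 6.95% of all windows. They stood in 6 of the 11 genes with a window that were lower in FITChigh. Those 11 include the replication genes Mcm3 and Mcm6, which hold no TTTGAA. Of the 9 mitotic genes with a window that were not called, 6 held both as well. These are matches of letters and not shown to be sites in these cells.

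**Figure D1:**
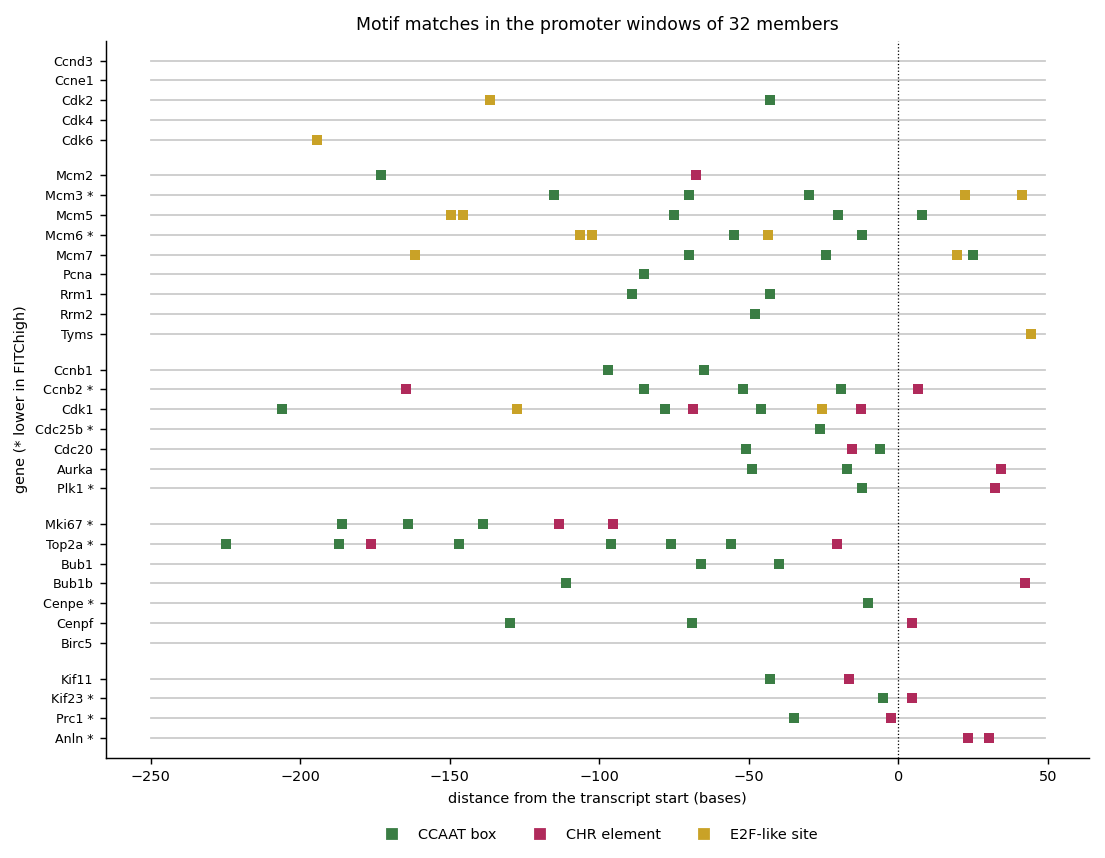
Matches of CCAAT (green), the CHR letters TTTGAA (magenta) and E2F-like letters (yellow) on either strand, by distance in bases from the transcript start, for the first RefSeq window of each of 32 genes. Magenta squares are found in 13 of the 18 mitotic genes and in Mcm2, and an asterisk marks genes lower in FITChigh.

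The unit of every level is the adjusted read count, a read count that the authors brought to a common library size and did not divide by gene length. Whole reads behind them were recovered (1589825 to 2931045 per library in FITChigh and 1705626 to 3345994 in FITCdim), so that 1 read was worth 0.607 to 1.54 adjusted read counts. Differences were tested as log2(value + 1) by limma-trend over 12907 genes with Benjamini-Hochberg adjustment, and a gene is called at an adjusted p under 0.05. On that scale the fold change of low genes is understated. The p-values rest on the spread between these 6 libraries. Read ratios (FITCdim over FITChigh) are scaled by the relative library sizes behind the adjustment, not by total reads. Their intervals are exact, at 95%, and cover counting error only, since PCR copies of a molecule were not marked.

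Of the 40 genes, 13 were lower in FITChigh, 0 were higher, 26 were not called and 1, Aurkb, was too low to be tested. Over all genes tested, 13.5% were called lower and 2.51% higher. At an unadjusted p under 0.05 the count of higher members was 0 as well, and limma-voom on recovered reads also called 0. The proliferation-specific genes gave 9 of the calls, namely Mki67, Top2a, Ccna2, Ccnb2, Plk1, Cenpe, Kif23, Prc1 and Anln. The comparison genes gave 4, namely Ccnd1, Cdc25b, Mcm3 and Mcm6. The median log2 fold change (FITChigh minus FITCdim) was -1.64 over the 23 tested proliferation-specific genes and -0.64 over the 16 comparison genes, against -0.01 over all genes tested. In 20 of the 39 tested members every FITChigh value lay below every FITCdim value, which held for 20.2% of all genes tested. Of the 39, 5 (Ccna2, Ccnb2, Cdc20, Plk1 and Kif23) passed the filter on low values through FITCdim alone. These had to differ, without overlap between the gates. All 5 are proliferation-specific, and 4 of them are among the calls. No comparison gene passed in this way. The median of -1.64 and the count of 20 without overlap are therefore in part fixed by the filter. In bulk RNA, fewer cells that hold a transcript and less of it per cell cannot be told apart.

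**Figure D2:**
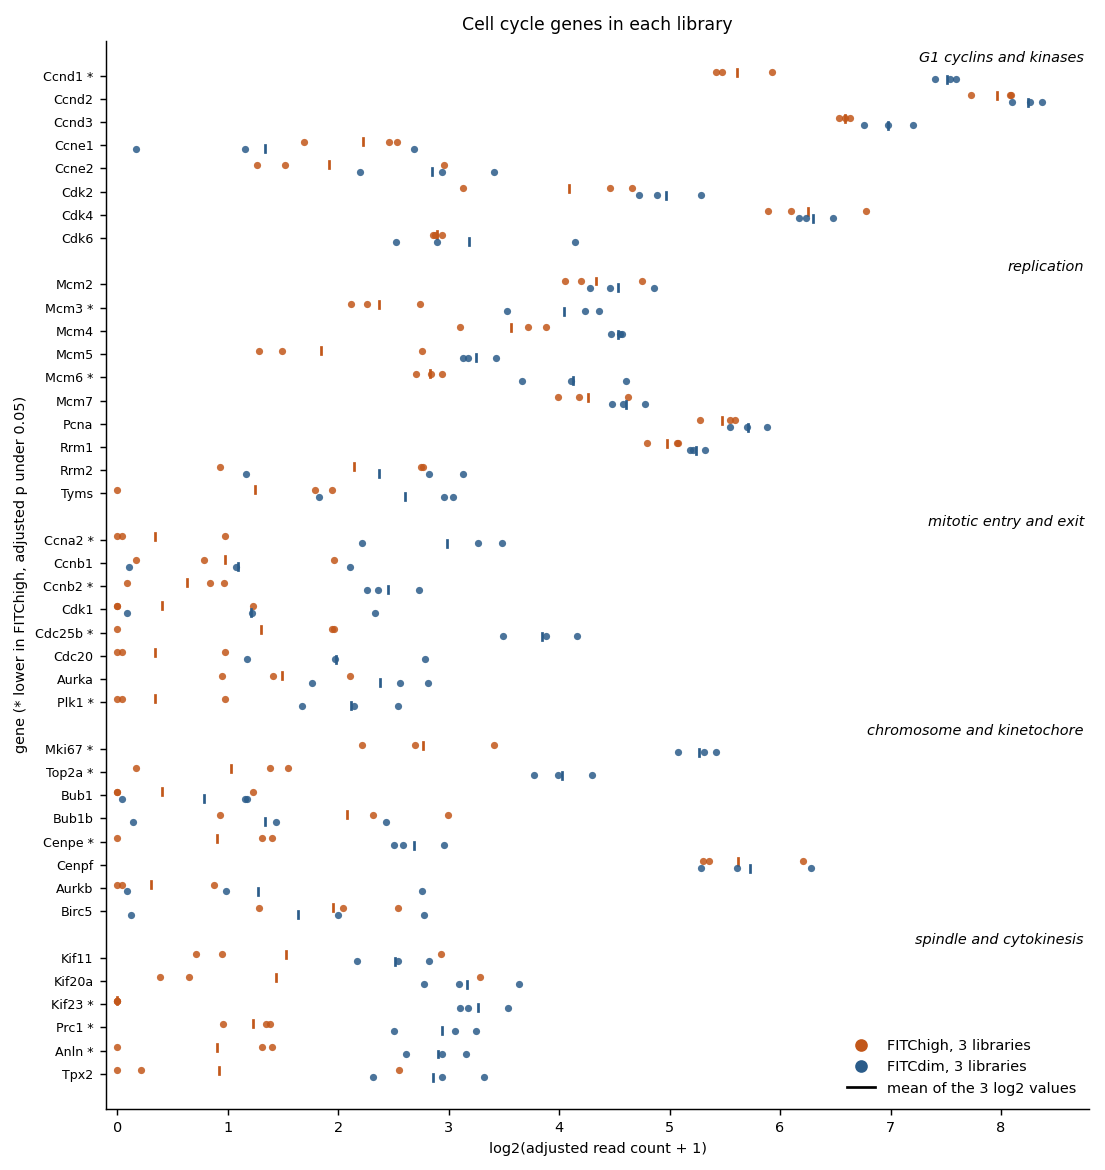
Each of the 40 genes in the 3 FITChigh (orange) and 3 FITCdim (blue) libraries on a log2(adjusted read count + 1) axis, with short bars at the mean of the log2 values and asterisks at the 13 genes called lower. Cyclin D genes, Cdk4, Pcna, Rrm1 and Cenpf were well above 0 in all 6 libraries, whereas most mitotic genes were near 0 in FITChigh and low in FITCdim too.

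Mki67, which encodes the Ki-67 protein that coats mitotic chromosomes and is the standard label of cycling cells (chromosome 7, 135689784 to 135716361 in mm10), gave adjusted read counts of 9.61, 3.63 and 5.47 over FITChigh replicates 1 to 3. Its FITCdim values were 32.8, 41.8 and 38.7, so every FITCdim library was more than 3 times the highest FITChigh library. The means were 6.24 ± 3.06 and 37.8 ± 4.58 (SD over 3 libraries), a 6.06-fold difference, with a limma log2 fold change of -2.50 (SE 0.36; adjusted p = 1.1e-04). The reads behind them were 19 in FITChigh and 123 in FITCdim, a scaled ratio of 5.74 (3.52 to 9.85). Top2a, the topoisomerase that untangles sister chromatids (chromosome 11, 98992943 to 99024189), stood at 1.92, 0.128 and 1.601 against 18.7, 14.9 and 12.7 (log2 fold change -2.99, SE 0.47, adjusted p = 3.0e-04). It had 4 reads in FITChigh and 53 in FITCdim (ratio 11.7, 4.33 to 44.7). Of the mitotic genes these gave the most reads among those called, and neither overlapped between the gates.

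The genes of mitotic entry were at the edge of detection in FITChigh. Ccna2, cyclin A2 (chromosome 3, 36564865 to 36572150), had 1 read there, in replicate 1, and 26 in FITCdim, a ratio of 23.04 (3.79 to 945). Its adjusted read counts were 0.965, 0.0326 and 0 against 10.1, 8.59 and 3.64 (log2 fold change -2.65, SE 0.54, adjusted p = 0.0027). About 12.5% of its exon bases are shared with Exosc9 on the other strand, and whether counting used the strand is not stated. Ccnb2, cyclin B2 (chromosome 9, 70407692 to 70421547), stood at 0.957, 0.0647 and 0.791 against 4.15, 3.80 and 5.64 (-1.82, SE 0.51, adjusted p = 0.022), with 2 reads against 15 (ratio 6.65, 1.55 to 59.9). Plk1, the polo-like kinase of mitotic entry and spindle assembly (chromosome 7, 122159439 to 122169873), stood at 0.965, 0.0326 and 0 against 2.18, 4.81 and 3.43 (-1.78, SE 0.55, adjusted p = 0.038), with 1 read against 11. Neither cyclin nor Plk1 overlapped between the gates. The filter on low values fixed this, since these genes passed it through FITCdim alone.

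Cdc25b, a phosphatase that activates Cdk1 and was counted with the comparison genes (chromosome 2, 131186949 to 131198497), stood at 2.89, 2.85 and 0 in FITChigh against 16.9, 10.2 and 13.7 in FITCdim (-2.54, SE 0.54, adjusted p = 0.0033). The 5 and 47 reads gave a ratio of 8.33 (3.33 to 26.8). The other 4 genes of this group were not called. Cdc20, the activator of the anaphase-promoting complex, had 1 read against 11 (-1.64, SE 0.59, adjusted p = 0.075). It did not overlap between the gates, which was fixed because it passed the filter through FITCdim alone. Cdk1 itself, the mitotic kinase, had 1 read in FITChigh and 7 in FITCdim, 6 of them in replicate 1 (-0.81, SE 0.67, adjusted p = 0.48). Aurka, the centrosomal kinase, had 6 against 15 reads (adjusted p = 0.28), and Ccnb1, cyclin B1, 4 against 5 (adjusted p = 0.93). The interval of the read ratio of Cdk1, 0.797 to 280, holds both 1 and the 5.74 of Mki67, so at this depth neither could be told from the other. That of Ccnb1, 0.238 to 5.58, also holds 1 and ends just short of 5.74.

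Of the 6 genes of the spindle and of cytokinesis 3 were lower in FITChigh (13.5% over all genes tested). Kif23, the kinesin of the midzone that brings the cleavage furrow into place (chromosome 9, 61915905 to 61946774), was listed at 0 in all 3 FITChigh libraries and at 10.6, 7.57 and 8.04 in FITCdim (adjusted p = 1.6e-04). Its 30 FITCdim reads, set against a floor of 3 reads over the FITChigh libraries, give an 8.86-fold difference. That value leaves counting error of the 30 reads aside and is not a bound, and the exact interval of the read ratio starts at 6.77. Prc1, which bundles microtubules of the midzone (chromosome 7, 80294450 to 80316259), stood at 0.943, 1.55 and 1.601 against 7.33, 8.52 and 4.69 (-1.71, SE 0.47, adjusted p = 0.018), and 11.1% of its exon bases are shared with Rccd1. Anln, the actin-binding scaffold of the contractile ring (chromosome 9, 22332012 to 22389188), stood at 0, 1.48 and 1.64 against 6.65, 5.11 and 7.91 (-1.997, SE 0.52, adjusted p = 0.014). None of the 3 genes overlapped between the gates, but for Kif23, which passed the filter through FITCdim alone, this was fixed in advance.

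Of the other spindle genes, Tpx2, which starts microtubule growth at chromosomes, stood at 4.85, 0.1597 and 0 against 6.66, 3.96 and 8.99 and sat at the threshold without passing it (-1.94, SE 0.64, adjusted p = 0.050). Kif20a, a second midzone kinesin, was set apart by FITChigh replicate 1 at 8.72, with 0.311 and 0.572 in the other two, against 11.4, 7.54 and 5.86 (-1.73, SE 0.65, adjusted p = 0.086). The annotation places 29.3% of its exon bases on exons of Cdc23 on the other strand, a gene with 71.1 and 66.1 adjusted read counts in the gates. Kif11, the motor that separates spindle poles, had 7 reads against 16 (-0.98, SE 0.58, adjusted p = 0.30).

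Of the other kinetochore and checkpoint genes 1 was called lower (13.5% over all genes tested). Cenpe, the kinetochore motor (chromosome 3, 135212537 to 135273611), stood at 0, 1.48 and 1.64 in FITChigh against 4.68, 5.01 and 6.77 in FITCdim (-1.78, SE 0.53, adjusted p = 0.029), with 3 reads against 18 (ratio 5.32, 1.55 to 28.2). The checkpoint kinases Bub1 and Bub1b had 1 against 3 and 11 against 7 reads, and the point estimate for Bub1b was above 0 (0.74, SE 0.66, adjusted p = 0.51). Birc5, survivin, the small subunit of the chromosomal passenger complex, had 9 reads against 10 (0.32, SE 0.64, adjusted p = 0.80). Aurkb, the kinase of that complex, had 1 read against 7, 5 of them in FITCdim replicate 2, and was not tested.

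Cenpf, a large kinetochore protein that builds up in G2 and is degraded after mitosis (chromosome 1, 189640606 to 189688086), was not called and had nearly equal means in the gates. It stood at 39.97, 38.4 and 72.8 adjusted read counts in FITChigh and at 47.9, 38.0 and 76.8 in FITCdim. The gates overlapped fully, and in both the library with the title tag 3-4 (replicate 3) was the highest. The means were 50.4 ± 19.4 and 54.2 ± 20.2 (SD over 3 libraries; log2 difference -0.10, SE 0.29, adjusted p = 0.86). Its 156 and 178 reads gave a ratio of 1.01 (0.811 to 1.26). Per kilobase of exon, Cenpf and Mki67 were alike in FITCdim (3.51 and 3.75 adjusted read counts) and unlike in FITChigh (3.27 and 0.620). The contrast of these 2 genes was not itself tested. Its promoter stretch above holds CCAAT boxes and a CHR match at the start, as those of Ccnb2 and Kif23 do. No annotated gene of the table shares exon bases with Cenpf.

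Cenpf made up 43.1%, 47.6% and 68.4% of the summed level of the 24 proliferation-specific genes in the FITChigh libraries, and 23.8%, 19.2% and 36.4% in FITCdim. With it, that sum averaged 93.3 ± 12.9 over the FITChigh libraries and 203 ± 6.80 over the FITCdim ones (SD), 2.18-fold more in the latter. Without it, as tried after seeing the data, the sums were 52.8, 42.2 and 33.6 against 153, 160 and 134, which is 3.48-fold. All 126 reads of those 23 genes over FITChigh thus stood against 499 over FITCdim.

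**Figure D3:**
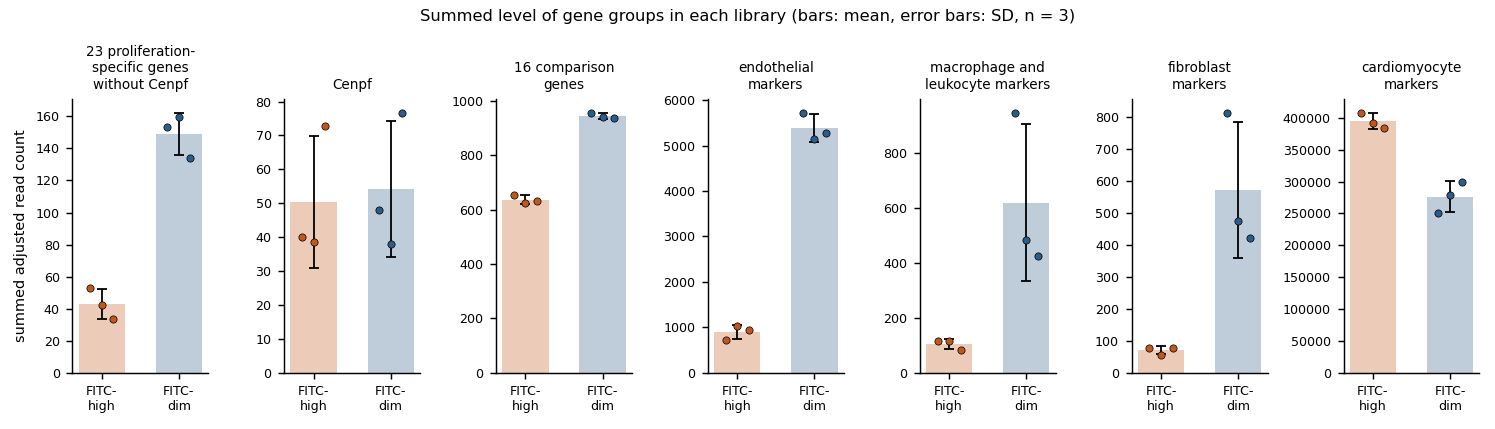
Summed adjusted read counts in each library (points) with the mean (bars) and SD (error bars, n = 3), for cell cycle groups and for marker lists of cell types, each panel on its own axis from 0. The 23 proliferation-specific genes without Cenpf were at 33.6 to 52.8 in FITChigh and 134 to 160 in FITCdim, while Cenpf by itself overlapped between the gates.

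Among the D-type cyclins 1 of 3 was called lower (13.5% over all genes tested). Ccnd1, cyclin D1 (chromosome 7, 144929931 to 144939925), stood at 41.9, 59.9 and 43.5 adjusted read counts in FITChigh and at 168, 184 and 193 in FITCdim. The 3 FITCdim libraries were close to each other and far above every FITChigh library (48.5 ± 9.96 against 182 ± 12.5, SD over 3 libraries; log2 difference -1.90, SE 0.18, adjusted p = 2.2e-06). The 139 and 596 reads gave a ratio of 3.80 (3.15 to 4.604). Ccnd2 stood at 272, 211 and 269 against 306, 274 and 329, just without overlap (-0.28, SE 0.15, adjusted p = 0.23). Its read ratio was 1.19 (1.08 to 1.30), and its contrast with Ccnd1 was not tested. Ccnd3 stood at 98.4, 95.3 and 91.4 against 125, 147 and 108 (-0.40, SE 0.17, adjusted p = 0.13), with a read ratio of 1.33 (1.14 to 1.55). Per kilobase of exon the levels in FITCdim were 38.6 for Ccnd1, 32.2 for Ccnd2 and 14.4 for Ccnd3, and those in FITChigh 10.3, 26.7 and 10.8, so that Ccnd2 was the highest D-type cyclin there.

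Their partner Cdk4 stood at 67.7, 109 and 58.2 in FITChigh against 88.1, 74.4 and 70.9 in FITCdim, with overlap (-0.04, SE 0.22, adjusted p = 0.93). Its read ratio was 1.08 (0.901 to 1.30), and 19.7% of its exon bases are shared with Tspan31 on the other strand. Cdk6 was lower in level, at 0.459 and 0.662 adjusted read counts per kilobase against 24.1 and 24.0 for Cdk4, and was not called (adjusted p = 0.73). Cdk2, the kinase of cyclins E and A, stood at 21.0, 7.76 and 24.3 against 37.9, 28.6 and 25.3 (-0.88, SE 0.37, adjusted p = 0.13). The cyclin E genes Ccne1 and Ccne2 had 11 and 10 reads in FITChigh and 9 and 22 in FITCdim, and neither passed (adjusted p = 0.38 and 0.28). Ccne2 shares 17.4% of its exon bases with Ints8.

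Of the 6 subunits of the Mcm helicase, which is loaded as a ring at replication origins, 2 were called lower (13.5% over all genes tested). Mcm3 (chromosome 1, 20802968 to 20820312) stood at 3.80, 3.34 and 5.69 against 17.8, 19.5 and 10.5 (-1.67, SE 0.40, adjusted p = 0.0081; read ratio 3.68, 1.98 to 7.35). Mcm6 (chromosome 1, 128331590 to 128359664) stood at 6.69, 6.18 and 5.501 against 23.4, 16.2 and 11.7 (-1.30, SE 0.37, adjusted p = 0.025; read ratio 2.95, 1.72 to 5.32). Mcm4, at 7.57, 12.1 and 13.7 against 22.5, 21.1 and 22.8, also had no overlap but missed the threshold (-0.96, SE 0.33, adjusted p = 0.056). So did Mcm5, at 5.79, 1.82 and 1.44 against 7.73, 9.79 and 8.02 (-1.40, SE 0.48, adjusted p = 0.059). Mcm2 (25.9, 17.3 and 15.6 against 21.0, 28.0 and 18.4) and Mcm7 (17.2, 23.6 and 14.9 against 26.4, 21.2 and 22.9) overlapped between the gates. Their read ratios were 1.13 (0.791 to 1.62) and 1.34 (0.934 to 1.93). Whether the subunits differed from each other in their change was not tested.

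Of the remaining replication genes, Pcna, the sliding clamp of DNA polymerase, stood at 45.8, 37.7 and 47.1 against 50.9, 57.8 and 45.8 (-0.24, SE 0.21, adjusted p = 0.52; read ratio 1.16, 0.916 to 1.46). Rrm1, the large subunit of ribonucleotide reductase, stood at 32.5, 26.8 and 32.7 against 39.04, 36.0 and 35.4 (-0.26, SE 0.23, adjusted p = 0.52). Rrm2, its small subunit that is made in S phase, had 12 reads against 15 (adjusted p = 0.86). Tyms, thymidylate synthase, had 5 against 17 (-1.36, SE 0.59, adjusted p = 0.14).

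**Figure D4:**
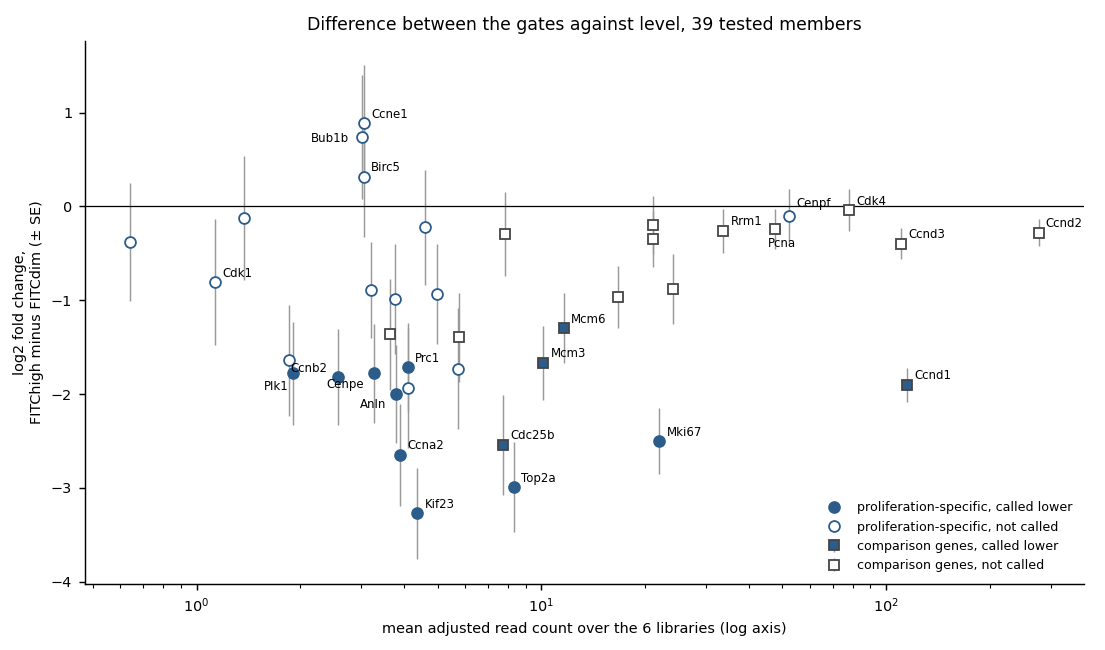
Log2 fold change (FITChigh minus FITCdim, with SE) of 39 tested genes against the mean adjusted read count on a log axis, for proliferation-specific (circles) and comparison genes (squares), filled where called lower. Ccnd2, Ccnd3, Cdk4, Cenpf, Pcna and Rrm1, at the right, lie between -0.40 and -0.04, with Ccnd1 among them at -1.90, and the lowest 3 genes are Kif23 at -3.27, Top2a at -2.99 and Ccna2 at -2.65.

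In all 6 libraries 17 of the 40 genes reached a value of at least 1, among them 14 of the 16 comparison genes but only Mki67, Cenpf and Ccne2 of the 24 proliferation-specific ones. Of these 17, 4 were called lower (Ccnd1, Mcm3, Mcm6 and Mki67), against 13.5% of all genes tested. Where every library held the gene, the call does not rest on a gate at 0. The sum of the 16 comparison genes was 656, 624 and 632 in FITChigh against 958, 942 and 938 in FITCdim, 1.48-fold higher there.

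Other genes of the cycle, 144 in 7 lists, served to widen this view, and 120 were tested. In FITChigh 9 were lower, 2 higher and 109 not called, and neither share was above that over all genes tested (13.5% lower and 2.51% higher). Of the 120, 8 passed the filter on low values through FITCdim alone and so had to differ, among them 4 of the 9 lower ones (E2f1, Foxm1, Aspm and Kifc1). E2f1 and Foxm1 encode transcription factors that switch cell cycle genes on. E2f1 was lower, listed at 0 in all 3 FITChigh libraries against 4.30, 3.75 and 3.46 (adjusted p = 0.0062). Set against the same floor the difference was 3.84-fold, and the exact interval starts at 2.70. Foxm1 was lower too, at 0.965, 0.0326 and 0 against 6.58, 10.8 and 3.60 (-2.55, SE 0.55, adjusted p = 0.0036). Of 30 tested mitosis genes 5 were lower, a share near the 13.5% over all genes, namely the spindle pole gene Aspm at -2.58 (adjusted p = 0.0024), with Ckap2l at -2.001, Kifc1 at -1.94, Kif20b at -1.94 and the separase gene Espl1 at -1.92. The call of Aspm held whichever library was left out, whereas those of the other 4 did not. Without FITCdim replicate 1 all 4 were lost (adjusted p from 0.092 for Kif20b to 0.14 for Ckap2l). Without FITChigh replicate 2 they were lost too (0.067 for Kifc1 to 0.097 for Ckap2l). Without FITChigh replicate 1 Kif20b (0.12), Kifc1 (0.081) and Ckap2l (0.13) were lost, and without FITChigh replicate 3 Kifc1 (0.060). Without FITCdim replicate 2 Kif20b (0.15) and Ckap2l (0.067) were lost, and without FITCdim replicate 3 Espl1 (0.054), Kifc1 (0.055) and Ckap2l (0.063). The most abundant of that list, Pttg1, which encodes securin, did not pass (197 ± 23.4 against 172 ± 30.1, SD over 3 libraries; 0.20, adjusted p = 0.47). By limma-trend 0 of 21 genes of the replication fork and 0 of 15 tested genes of the anaphase-promoting complex were called, as by limma-voom, with 3 and 2 at an unadjusted p under 0.05. The most abundant of these lists were Rpa1, a subunit of the protein that coats single-stranded DNA (118 against 84.5; 0.49, adjusted p = 0.076), and Anapc5 (547 against 506; 0.11, adjusted p = 0.62). Those of the remaining lists, Tfdp2, an E2F partner (0.32, adjusted p = 0.20), Orc3 of the origin recognition complex (0.20, adjusted p = 0.47) and Ccng1, cyclin G1 (0.18, adjusted p = 0.43), did not pass either.

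Of 5 tested inhibitors of cyclin-dependent kinases 2 were lower in FITChigh, against 13.5% of all genes tested. Cdkn1a, p21 (63.1, 70.8 and 43.1 against 128, 141 and 104), changed by -1.08 on the log2 scale (SE 0.21, adjusted p = 0.0015). Cdkn1c, p57 (7.63, 9.02 and 7.08 against 30.1, 47.5 and 34.3), changed by -2.09 (SE 0.31, adjusted p = 1.7e-04). The other 3 tested inhibitors were not called, among them Cdkn1b, p27 (0.05, adjusted p = 0.88). Neither Rb1 (-0.22, adjusted p = 0.45) nor its relative Rbl2 (0.22, adjusted p = 0.44) passed.

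Higher in FITChigh were Gmnn, geminin, which blocks the reloading of the Mcm helicase, and Ccnl2, a cyclin of RNA processing. Gmnn stood at 69.6, 99.6 and 75.4 against 47.9, 57.6 and 36.9, without overlap (0.77, SE 0.22, adjusted p = 0.023). Ccnl2 stood at 209, 240 and 203 against 175, 136 and 138 (0.54, SE 0.15, adjusted p = 0.024). With each library scaled to one common total neither was called (adjusted p = 0.093 and 0.19). The call of Gmnn was also lost without FITChigh replicate 2 (0.11), FITCdim replicate 1 (0.081) or FITCdim replicate 3 (0.10). That of Ccnl2 was lost without FITChigh replicate 1 (0.067) or 2 (0.089) and without FITCdim replicate 2 (0.093) or 3 (0.081).

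Most markers of other cell types, and those of atrial myocytes, moved in the direction of the mitotic genes. Over all genes tested, 13.5% were called lower. All 10 endothelial markers were called lower in FITChigh, where their sum was 715 to 1018 against 5146 to 5731 in FITCdim, 6.04-fold. Of 10 macrophage and leukocyte markers 9 were lower (82.1 to 116 against 426 to 948, 5.96-fold) and Fcgr1 was at 0 in FITChigh. Of 9 fibroblast markers 8 were lower (55.1 to 78.4 against 422 to 815, 8.15-fold) and Tcf21 was at 0 in FITChigh. Of 9 pericyte and smooth muscle markers 7 were lower (1392 to 1849 against 1935 to 2549, 1.38-fold). Not called were Acta2 and Abcc9, and Abcc9 had the highest level of that list (1228 against 1148, log2 difference 0.10). Of 5 atrial markers all were lower (201 to 443 against 1138 to 2453, 5.12-fold), and of 5 epicardial markers 4 (5.68 to 8.57 against 63.5 to 147, 16.6-fold). Itgam of the macrophage list and Upk1b of the epicardial list passed the filter through FITCdim alone and so had to differ. Erythroid genes were low, with Hba-a1 and Hba-a2 among those at 0 in all libraries (sum 1.86 to 7.43 against 11.8 to 27.2). Only Beta-s, the entry for Hbb-bs, was tested among them, and it was called lower (4.65 against 17.6, log2 difference -1.81, adjusted p = 0.01). Genes of B and T lymphocytes were nearly absent, with Ms4a1, Cd3d and Cd3g at 0 in all (0 to 1.62 against 0.265 to 7.82). The sum of 12 cardiomyocyte markers, all present in every library, was 383700 to 408600 against 250900 to 299900. Of the 12, 1 (Tnni3) was called higher, against 2.51% of all genes tested. The exact two-sided permutation p was 0.1 for each sum but the lymphocyte one (0.3), and 0.1 is the smallest that 3 against 3 libraries allow. Because the lists were chosen with earlier results of these data known, these p-values are a description only. For every 100 adjusted read counts of endothelial markers there were 3.57 to 7.39 of the 23 proliferation-specific genes without Cenpf in FITChigh and 2.54 to 3.11 in FITCdim. Per 100 of the macrophage markers there were 36.4 to 46.4 and 16.2 to 33.0, and per 100 of the fibroblast markers 42.9 to 76.6 and 18.8 to 33.6. The part of these cells in the difference of the cell cycle genes was not tested.

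Libraries of 1 gate correlated at 0.964 to 0.971 across genes on the log2 scale and those of different gates at 0.912 to 0.938. The totals of the deposited values differed, at 2333473 to 2443707 in FITChigh and 2030583 to 2112872 in FITCdim. Scaled to a common total, the calls over all genes moved from 1748 lower and 324 higher to 2189 and 41, and the median over all genes to -0.20 on the log2 scale. With quantile normalization they were 1213 and 467, with a median of 0.13. Among the 40 genes the lower calls then numbered 18 and 6, and 0 were higher under either.

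The calls of Mki67, Top2a, Kif23, Ccna2, Cdc25b and Ccnd1 held in every alternative in which the gene was tested, 14 for Ccna2 and 15 for each of the others, and whichever library was left out. Kif23 and Ccna2 passed the filter through FITCdim alone and so had to differ, which makes their stability in part fixed. The fits with a library left out kept the genes that passed the filter over all 6. Only 6 members were lower once FITCdim replicate 1, the deepest library, was removed, and 9 to 12 once any other was. Without FITCdim replicate 1 the call was lost for Mcm3 (adjusted p = 0.055), Mcm6 (0.14), Ccnb2 (0.059), Plk1 (0.052), Cenpe (0.073), Prc1 (0.069) and Anln (0.061). Without FITCdim replicate 2 it was lost for Mcm6 (0.069), Plk1 (0.13), Cenpe (0.067) and Prc1 (0.076), and without FITCdim replicate 3 for Ccnb2 (0.077), Plk1 (0.086), Cenpe (0.10) and Anln (0.061). Without FITChigh replicate 1 that of Mcm6 (0.052), Cenpe (0.13), Prc1 (0.066) and Anln (0.069) was lost, without replicate 2 that of Ccnb2 (0.083) and Plk1 (0.11), and without replicate 3 that of Mcm6 (0.057) and Plk1 (0.095). Conversely, without FITChigh replicate 1 Kif20a (0.0038), Tpx2 (0.0049) and Mcm5 (0.021) were called lower, without FITChigh replicate 3 Mcm4 (0.046), and without FITCdim replicate 3 Cdc20 (0.045).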

How the data were processed

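For each gene and library the deposited table holds a signal, a read count adjusted by the authors, not raw and not CPM. Libraries were strand-specific mRNA libraries read as pairs of 75 bp, per the labels' protocols. STAR 2.5, edgeR and mm10 are named in the submitters' processing notes, and the sources used here state neither their settings nor the counting program or annotation. Of 23410 gene lines 6 were garbled and left out. Undoing a negative binomial quantile adjustment gave the reads (dispersion 0.0203), and in every library 100% of values came out whole within 0.1. Library pairs of a gate differed by more than sampling noise (chi-square 3.87 to 6.60 times its degrees of freedom). Recovered reads served for depth, intervals, the floor of 3 reads and 1 alternative.

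Genes at 1 or more in at least 3 of 6 libraries (12907) entered limma-trend (limma 3.58.1, R 4.3.3) as log2(value + 1) (all 6 libraries, no block, two-sided, Benjamini-Hochberg at 0.05), after a test on simulated data. Replicates are numbered in accession order. The 15 alternatives changed the pseudocount, filter, scaling, test, block or libraries. The members and lists were chosen with earlier results of these data known. Values by library are given for called members and the most abundant of each group; other lists name their most abundant and most changed called genes. Cenpf was singled out, and Rb1, Rbl2, Cdkn1b, Kif20b, Espl1, Tnni3 and the read intervals of uncalled members were added, after values were seen. Exon lengths and overlaps are from GENCODE M21 (mm10).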

Additional observations from a re-analysis of the deposited data

How the results depend on the processing

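Over 15 alternatives the count of the 40 genes lower in FITChigh ran from 6 to 18 and that of higher ones was 0 in each. It was 6 with quantile normalization and 6 to 12 when a library was left out. It was 13 when, as added after seeing the data, only the 36 genes with at least 10 reads were counted. Over all genes the count of higher ones was 41 with a common total, and 67 to 337 when a library was left out, with 1156 to 1667 lower. Of the other cell cycle genes 2 were lower with the stricter filter (5 in place of 1) and 4 with quantile normalization, 0 were higher with a common total, and 5 to 10 were lower and 0 to 3 higher when a library was left out. The fold of the summed proliferation-specific genes (FITCdim over FITChigh) was 2.505 with a common total, 1.46 with quantile normalization and 3.48 without Cenpf, the last added after seeing the data, and 2.04 to 2.34 when a library was left out. Causes of these shifts were not tested.

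Libraries with the same title tag deviated together weakly, each r being above 0 (0.071, 0.125 and 0.175). The main fit was planned without a block, so it did not take the tags as pairs. Whether libraries with the same tag share an origin is not stated in the labels and was not tested. With the tag as a replicate block, 18 of the 40 genes were lower and 0 higher, 1064 of all genes were higher, and 6 of the other cell cycle genes were higher.

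Signs of uncalled genes turned. With quantile normalization the log2 fold change was 0.04 for Cdk4, 0.33 for Cdk6, 0.14 for Mcm2, 0.42 for Rrm2, 0.72 for Ccnb1, 0.46 for Bub1 and 0.053 for Cenpf. When a library was left out it ran from -0.30 to 0.15 for Cdk4, from -0.62 to 0.19 for Cdk6, from -0.83 to 0.39 for Rrm2, from -0.62 to 0.39 for Ccnb1, from -0.40 to 0.17 for Cenpf and from -0.44 to 0.89 for Birc5. Few reads stand behind the mitotic genes, 0 to 4 over FITChigh for Kif23, Ccna2, Plk1, Ccnb2, Cenpe, Anln, Prc1 and Top2a.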
